A study of Bos taurus with 7 samples.

Results

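The data described here are the transcripts of 10 bovine genes whose enzymes make prostaglandins or break them down, compared between day 6 and day 4 of the estrous cycle in the corpus luteum. The genes were taken by symbol from the authors' deposited table, in which each stands on 1 of 19539 entries. They are PLA2G4A, PTGS1, PTGS2, PTGES, PTGES2, PTGES3, PTGDS, PTGIS, HPGD and CBR1. The corpus luteum is a transient ovarian gland, built from the wall of the follicle after ovulation, and its main product is progesterone. Whole luteal tissue of day 6 (4 libraries) and of day 4 (3 libraries) was sequenced, and the series description says that these glands were snap frozen. Every cow had the same synchronisation, in which a progesterone device stayed in place for 7 days and injections of PGF2α (25 mg) and gonadotropin-releasing hormone (86 mcg) were given, and no other treatment. Neither breed nor age is stated. Slaughter preceded collection on day 4, and colpotomy, which takes the gland through the vagina, was used beyond day 6. The labels leave the route on day 6 unstated, so a change of day and a change of route cannot be told apart if day 6 glands came by colpotomy. The labels do not say that each library came from another cow, so the p-values measure the spread between these samples, which may be technical.

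Prostaglandins are lipid signals made from arachidonic acid, which phospholipases release from membranes. The cyclooxygenases PTGS1 and PTGS2 turn it into an unstable endoperoxide, PGH2, and separate terminal synthases turn PGH2 into PGE2, PGD2, prostacyclin or PGF2α. A dehydrogenase, HPGD, ends the signal by oxidising the product. In cattle PGF2α from the uterus ends luteal function, the early gland does not regress in response to it, and luteal cells themselves also make prostaglandins, of which PGE2 and prostacyclin are known to favour progesterone secretion. How the gland gains the capacity to regress is the subject named in the title of the study.

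The deposited table holds 1 mean per day for each gene and no value per library, so whether single libraries of day 6 and day 4 overlap cannot be shown, and the depth behind each value is unknown. Levels are the authors' mean TPM, a share of all transcripts corrected for length, so levels of different genes can be set side by side. Log2 fold changes (day 6 over day 4) multiply the deposited Wald statistic by the deposited standard error, and the error after ± is that standard error. Called genes are those with an adjusted p under 0.05 in the authors' deposited table. Tissue markers fitted the label: STAR, which carries cholesterol into mitochondria, averaged 2504 TPM on day 6 and 588 TPM on day 4, and HSD3B1, which makes progesterone, 4624 and 1995 TPM, in the authors' deposited table.

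On day 6 the gland held far less PTGDS transcript, less PTGES and PTGS2 transcript and more PTGES2 transcript than on day 4. PTGDS, a prostaglandin D synthase, was 11.7-fold lower, PTGS2, the inducible cyclooxygenase, 3.8-fold lower and PTGES, the inducible PGE synthase, 2.33-fold lower, as the model's fold changes from the authors' deposited table. For PTGS2 the size depends on the measure, since the deposited log2 ratio, which adds 1 to each mean TPM, is -0.75 and the ratio with nothing added is -2.13. PTGES2, another PGE synthase, was 1.68-fold higher there, a call that was lost on the TPM scale described further on. The other 6 genes, PLA2G4A, PTGS1, PTGES3, PTGIS, HPGD and CBR1, were not called. Thus 1 of 10 genes was called higher and 3 lower, against 4.12% higher and 10.4% lower of all 19485 tested entries (14.5% in either direction). The median log2 fold change was -0.82 over the 10 genes and -0.04 over all tested entries. Because the 10 genes were chosen with earlier results of these data known, neither comparison is a test of the set.

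The order of the levels differed between the days. On day 6 PTGES3 stood highest of the 10, followed by PTGIS, PTGES2, PTGDS, PTGES, PLA2G4A, CBR1, HPGD, PTGS1 and PTGS2. On day 4 PTGDS stood highest, followed by PTGES3, PTGIS, PTGES, PTGES2, CBR1, PLA2G4A, HPGD, PTGS1 and PTGS2. Which neighbours in these orders differ beyond their spread cannot be shown from 1 mean per day. HPGD and both cyclooxygenases held the last 3 places on both days.

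**Figure D1:**
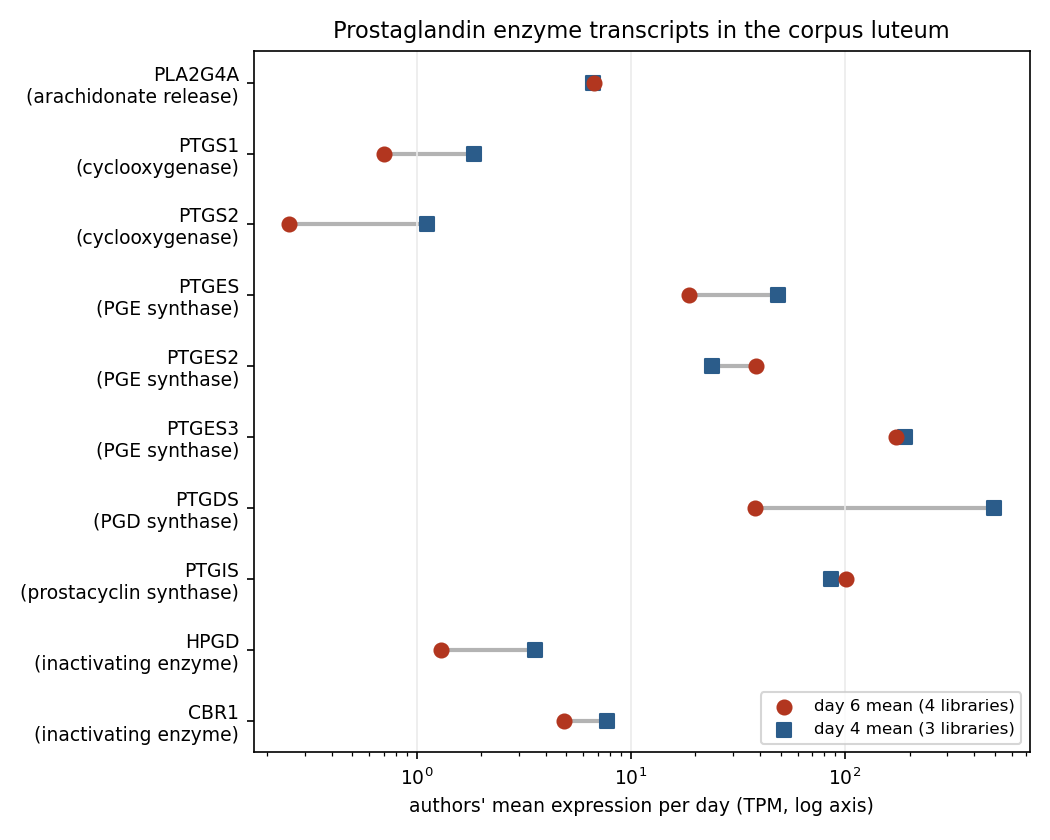
The authors' mean expression of each enzyme gene in TPM (log axis), with a red circle for day 6 and a blue square for day 4, joined by a grey line. PTGDS shows the longest line among the synthases, with 38.1 TPM on day 6 and 499 TPM on day 4, while the points of PLA2G4A lie on each other.

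Summed over the 10 genes, the mean level was 384 TPM on day 6 and 868 TPM on day 4 in the authors' deposited table. Most of that gap was PTGDS. Without PTGDS the sum was 346 TPM on day 6 and 369 TPM on day 4. PTGDS made up 9.93% of the summed level on day 6 and 57.5% on day 4. PTGES3 made up 45.2% on day 6 and 21.9% on day 4, PTGIS 26.4% and 9.87%, and PTGES2 10.05% and 2.76%. These shares are descriptions of the day means and carry no error. Because PTGDS is part of the sum, its lower level on day 6 raises the share of every other gene by construction. PTGES3 itself averaged 173 TPM on day 6 and 190 TPM on day 4.

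**Figure D2:**
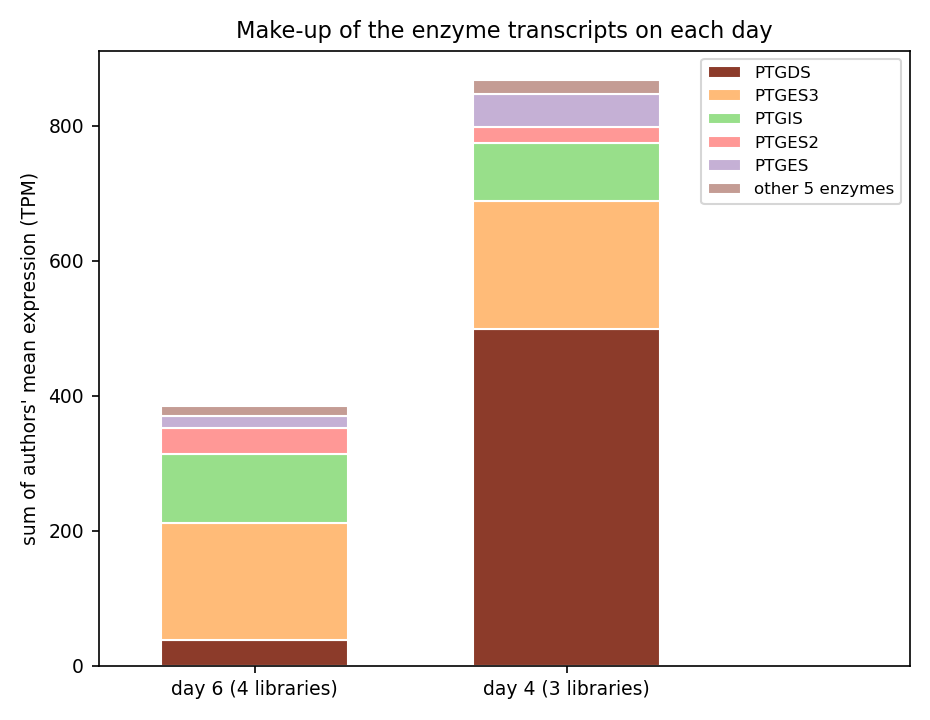
Stacked bars of the authors' mean expression in TPM, summed over the 10 enzyme genes, for day 6 on the left and day 4 on the right. The dark PTGDS block takes 9.93% of the day 6 bar and 57.5% of the day 4 bar, and the blocks above it differ far less in height.

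At the head of the pathway, PLA2G4A, the cytosolic phospholipase A2 that releases arachidonic acid, had nearly the same level on both days. It averaged 6.71 TPM on day 6 and 6.67 TPM on day 4 in the authors' deposited table, with a log2 fold change of 0.25 ± 0.30 and adjusted p = 0.631. Its 95% Wald interval from the deposited values ran from -0.34 to 0.84. A change in either direction of less than 0.81 on the log2 scale would not have been called at its standard error. PLA2G4A and PTGS2 lie next to each other, with no other protein-coding gene between them, in RefSeq's ARS-UCD2.0 annotation. Of these neighbours PTGS2 was called and PLA2G4A was not, and the difference between their fold changes was not tested.

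Both cyclooxygenases stood at low levels. PTGS2 averaged 0.254 TPM on day 6 and 1.11 TPM on day 4 in the authors' deposited table, and it fell (log2 -1.93 ± 0.43, adjusted p = 0.000318). On day 6 only 21.1% of all entries had a lower mean than PTGS2, and on day 4 27.4%. PTGS1, the constitutive form, averaged 0.705 TPM on day 6 and 1.86 TPM on day 4 there, with a log2 fold change of -1.22 ± 0.55 and adjusted p = 0.116. PTGS1 was not called, and its Wald interval from the deposited values, -2.29 to -0.15, overlapped that of PTGS2, -2.78 to -1.08. At its standard error PTGS1 would have needed a size of 1.47 to be called. Together both genes summed to 0.959 TPM on day 6 and 2.97 TPM on day 4 in the authors' deposited table. PTGS1 was the more abundant of the pair on both days, with 2.78 times the TPM of PTGS2 on day 6 and 1.67 times on day 4.

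The 3 PGE synthase genes did not share a direction. PTGES, the membrane enzyme that is induced together with PTGS2 in many cells, averaged 18.6 TPM on day 6 and 48.4 TPM on day 4 in the authors' deposited table. It fell there (log2 -1.22 ± 0.42, adjusted p = 0.0292). PTGES2, a membrane-associated form, averaged 38.6 TPM on day 6 and 24 TPM on day 4 there, and it rose (log2 0.75 ± 0.23, adjusted p = 0.0161). Their Wald intervals from the deposited values did not overlap, -2.04 to -0.41 for PTGES and 0.29 to 1.21 for PTGES2. The ratio of PTGES to PTGES2 in mean TPM was 0.482 on day 6 and 2.02 on day 4, so the more abundant of the pair changed. PTGES3, which encodes a cochaperone of HSP90 as well as a cytosolic PGE synthase, was the most abundant of the 3 on both days. It averaged 173 TPM on day 6 and 190 TPM on day 4 in the authors' deposited table, and was not called (log2 0.08 ± 0.14, adjusted p = 0.755). Its Wald interval, -0.19 to 0.36, was the narrowest of the 10 genes.

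PTGDS showed the widest gap between the days. This gene encodes the lipocalin-type prostaglandin D synthase, a secreted protein that also binds retinoids and other lipids. PTGDS averaged 38.1 TPM on day 6 and 499 TPM on day 4 in the authors' deposited table (log2 -3.55 ± 0.57, adjusted p = 9.88e-08). By level it stood above 86.5% of all entries on day 6 and above 98.7% on day 4. Its standard error of 0.57 was larger than the median of 0.29 over the 346 tested entries within 1.5-fold of its mean TPM. The Wald interval, -4.67 to -2.44, lay clear of the intervals of the other 9 genes except that of PTGS2. The hematopoietic enzyme HPGDS, which makes the same product in mast cells and other blood cells, averaged 0.131 TPM on day 6 and 0.185 TPM on day 4 in the authors' deposited table (adjusted p = 0.923).

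PTGIS, the prostacyclin synthase, was abundant on both days. It averaged 101 TPM on day 6 and 85.7 TPM on day 4 in the authors' deposited table, above 94.9% and 93.5% of entries. Its log2 fold change of 0.47 ± 0.23 there had an adjusted p of 0.148 and was not called. The Wald interval from the deposited values ran from 0.03 to 0.92. PTGIS stood at 5.45 times the TPM of PTGES on day 6 and 1.77 times on day 4. PTGDS stood at 0.376 times the TPM of PTGIS on day 6 and 5.82 times on day 4.

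Of the enzymes that act on finished prostaglandins, neither was called, and both had lower means on day 6. HPGD, the dehydrogenase that inactivates PGE2 and PGF2α, averaged 1.3 TPM on day 6 and 3.55 TPM on day 4 in the authors' deposited table (log2 -1.17 ± 0.50, adjusted p = 0.0945). At its standard error HPGD would have needed a size of 1.34 to be called. CBR1, a carbonyl reductase that acts on several prostaglandins and can convert PGE2 to PGF2α, averaged 4.89 TPM on day 6 and 7.71 TPM on day 4 there (log2 -0.46 ± 0.29, adjusted p = 0.294). CBR1 stood at 3.76 times the TPM of HPGD on day 6 and 2.17 times on day 4. No other protein-coding gene overlaps any of the 10 genes in the ARS-UCD2.0 annotation.

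**Figure D3:**
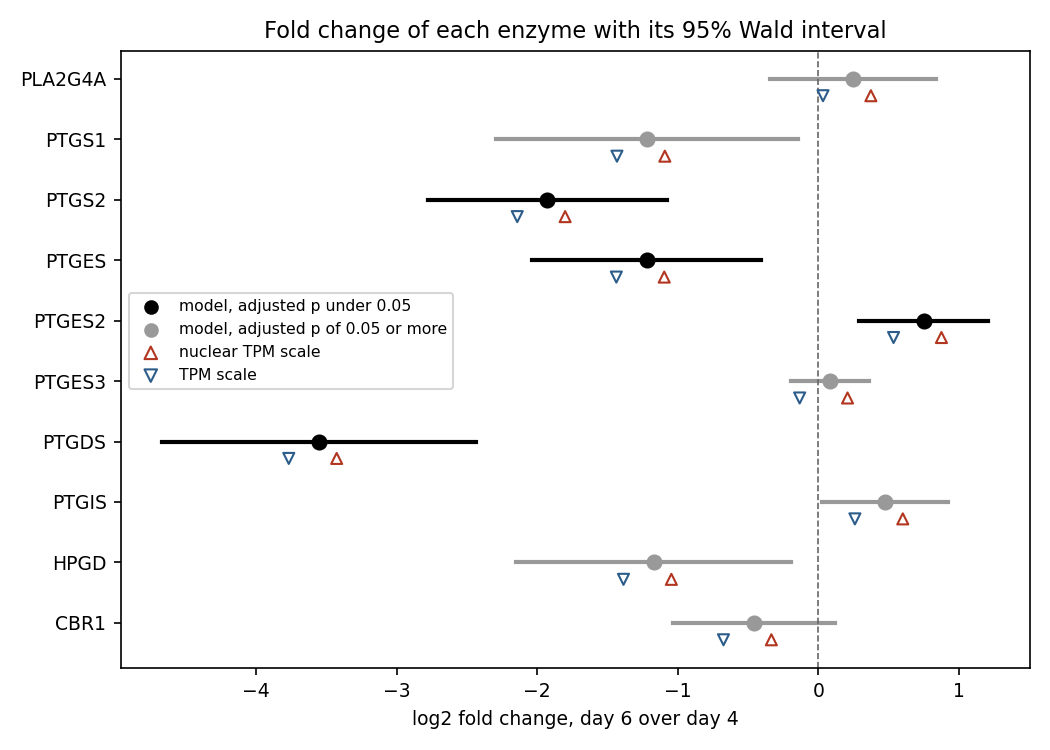
Log2 fold change of each enzyme gene, day 6 over day 4, as a dot with its 95% Wald interval, black where called. Open triangles show the same value on the TPM scale (pointing down) and on the nuclear TPM scale, which leaves out mitochondrially encoded genes (pointing up); those of PTGES3 lie on either side of 0.

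The fold changes depend on how libraries are scaled to each other, and mitochondrially encoded transcripts took 29.2% of the summed mean TPM on day 6 and 10.3% on day 4 in the authors' deposited table. Over 10599 entries with a mean of 5 TPM or more, the model's fold changes exceeded log2 ratios of mean TPM by a median of 0.21. After subtraction of this shift (the TPM scale), PTGES2 was no longer called (log2 0.53, adjusted p = 0.0881). On that scale PTGS1 (-1.43, adjusted p = 0.0437) and HPGD (-1.39, adjusted p = 0.0299) were called lower, so that 0 genes were higher and 5 lower. After the same step on TPM values rescaled without mitochondrially encoded genes (the nuclear TPM scale), which adds 0.13, PTGIS was called higher beside PTGES2 (0.60, adjusted p = 0.0495), which gave 2 higher and 3 lower. PTGDS, PTGS2 and PTGES were called lower on both of these scales, PTGES only narrowly on the nuclear TPM scale (-1.10, adjusted p = 0.0488). PTGES3, not called on either, changed sign to -0.13 on the TPM scale. Of the calls over all entries 28.4% were higher on day 6, 7.24% on the TPM scale and 53.7% on the nuclear TPM scale. Of all 19485 tested entries, 299 were called higher and 3829 lower on the TPM scale. On the nuclear TPM scale 1848 were higher and 1595 lower. Counts of genes on these scales, here and below, stand against these counts. When the normal distribution behind the authors' Wald test was replaced by a t distribution (5 degrees of freedom), 0 of the 10 genes and 0 of all entries were called. There were 3133 entries at an unadjusted p under 0.05, against 5552 with the normal distribution. A t distribution with so few degrees of freedom calls less by construction, so this empty result says nothing about single genes.

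**Figure D4:**
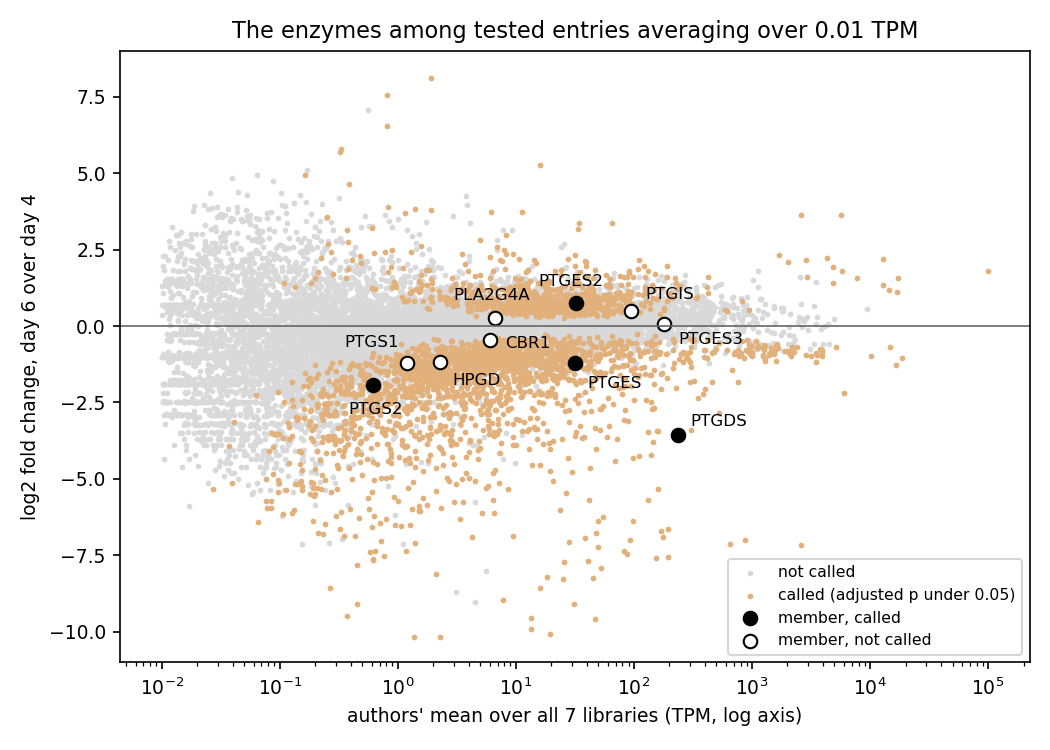
Log2 fold change, day 6 over day 4, against the authors' mean over 7 libraries in TPM (log axis) for tested entries averaging over 0.01 TPM, with called entries in tan and the 10 enzyme genes as large circles, filled where called. PTGDS, at a log2 fold change of -3.55, lies apart from the dense band of abundant entries, and PTGS2 lies among entries of low level with a wide scatter.

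The entries most like each called enzyme gene were found by distance in log2 mean TPM over both days, a measure that rests on 2 day means only. A similar level and a similar direction of change are fixed by this choice, so they are no finding. Nearest to PTGDS were APOD, an apolipoprotein of the lipocalin family (53.3 TPM on day 6 and 641 TPM on day 4), CCN1, a matricellular protein (27.1 and 337 TPM), and SERPING1, the inhibitor of complement C1 (27.4 and 329 TPM), in the authors' deposited table. Their distances from PTGDS of 0.60 to 0.77 were larger than the 0.03 to 0.09 found for the entries named next for PTGES, PTGS2 and PTGES2. CALCOCO1, SMARCD3 and DDAH2 were nearest to PTGES and GCNT2 and MYH7B to PTGS2, and PCSK5, MCUB and ISOC2 were nearest to PTGES2.

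On a broad list for the release and recycling of arachidonic acid, 3 of 43 tested genes were called higher and 2 lower. Not every gene on it acts in this way, as with the annexin genes ANXA1, ANXA2 and ANXA5. The median log2 fold change was 0.05. The 11.6% called lay below the 14.5% of all tested entries, so the list did not stand out. On the TPM scale 2 were higher and 3 lower, and on the nuclear TPM scale 6 were higher and 2 lower. PLA2G12A, a secreted phospholipase A2, rose to 29.7 TPM on day 6, against 16.1 TPM on day 4, in the authors' deposited table (log2 1.12 ± 0.22, adjusted p = 1.61e-05). ABHD6, a monoacylglycerol lipase, rose to 48.1 TPM on day 6, against 16.8 TPM on day 4 there (log2 1.78 ± 0.60, adjusted p = 0.0278), as did DAGLB, a diacylglycerol lipase. DAGLB was not called on the TPM scale (adjusted p = 0.432). MGLL, the main monoacylglycerol lipase, fell to 7.38 TPM on day 6, against 24.7 TPM on day 4, in the authors' deposited table (log2 -1.55 ± 0.37, adjusted p = 0.000872). PLD2, a phospholipase D, fell there too (9.3 TPM on day 6 and 23.5 TPM on day 4). MBOAT2, an acyltransferase, had the smallest adjusted p of the genes not called (0.0643).

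Other prostanoid synthases and reductases numbered 16 tested genes, of which 3 were called higher and 2 lower, with a median log2 fold change of 0.22, against 4.12% higher and 10.4% lower of all tested entries. On the TPM scale 2 were higher and 4 lower, and on the nuclear TPM scale 5 were higher and 2 lower. DHRS4, a carbonyl reductase, and the glutathione transferases GSTA1 and GSTM3 rose. DHRS4 averaged 43.8 TPM on day 6 and 20.1 TPM on day 4 in the authors' deposited table (log2 1.35 ± 0.38). GSTM3 was not called on the TPM scale (adjusted p = 0.0738). AKR1C4, an aldo-keto reductase, fell to 0.122 TPM on day 6, against 3.65 TPM on day 4, in the authors' deposited table (log2 -4.75 ± 0.85, adjusted p = 2.62e-06). The second gene called lower, AMY2B, encodes an amylase and stood on this list although it makes no prostanoid. The list also holds general reductases and transferases, so its counts are not counts of prostanoid enzymes alone. AKR1B1, the aldo-keto reductase known as a PGF synthase in the bovine uterus, averaged 39.6 TPM on day 6 and 59.2 TPM on day 4 there and was not called (log2 -0.36 ± 0.22, adjusted p = 0.264). TBXAS1, the thromboxane synthase, stood at 1.96 TPM on day 6 and 2.62 TPM on day 4 there (adjusted p = 0.701). AKR1A1, an aldehyde reductase, had the smallest adjusted p of the genes not called (0.0589).

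Of 14 tested receptors and transporters of prostanoids, 2 were called higher and 1 lower, with a median log2 fold change of 0.00, against 4.12% higher and 10.4% lower of all tested entries. Of these 14 genes 1 was higher and 3 lower on the TPM scale. SLCO2A1, the prostaglandin transporter, and TBXA2R, the thromboxane receptor, rose, and PTGER2, a PGE2 receptor, fell. TBXA2R averaged 3.02 TPM on day 6 and 2 TPM on day 4 in the authors' deposited table, and it was not called on the TPM scale (adjusted p = 0.0706). PTGDR, the receptor of PGD2, averaged 1.55 TPM on day 6 and 2.99 TPM on day 4 there (log2 -0.73 ± 0.27, adjusted p = 0.0536) and was not called. PTGFR, the receptor of PGF2α, was not called either, with a standard error of 1.23 around a log2 fold change of 0.95 in the authors' deposited table.

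Genes of the lipoxygenase, epoxygenase and leukotriene branches, which compete for the same arachidonic acid, were called lower in 5 of 24 tested cases and higher in 1, against 10.4% lower and 4.12% higher of all tested entries. The median log2 fold change was -0.25. ALOX5, the lipoxygenase that starts leukotriene synthesis, averaged 0.579 TPM on day 6 and 1.58 TPM on day 4 in the authors' deposited table (log2 -1.20 ± 0.43, adjusted p = 0.0392). LTB4R, GGT1 and DPEP2 also fell, and DPEP1 was listed at 0 on day 6 and averaged 0.489 TPM on day 4 in the authors' deposited table. CYSLTR2, a receptor of cysteinyl leukotrienes, rose to 1.87 TPM on day 6, against 0.967 TPM on day 4 there (log2 1.19 ± 0.34). ALOX5, LTB4R and DPEP2 were not called on the nuclear TPM scale, where 1 gene was higher and 2 lower. Among the 10 of these genes averaging at least 1 TPM, 1 was higher and 1 lower. GGT5 had the smallest adjusted p of the genes not called (0.0834).

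Around PTGES3 stands the HSP90 machinery, which folds steroid receptors and other client proteins. Of 16 tested genes only HSP90AA1, a stress-inducible HSP90, was called higher and 0 were lower, 6.25% against the 14.5% called of all tested entries, with a median log2 fold change of 0.20. HSP90AA1 averaged 658 TPM on day 6 and 491 TPM on day 4 in the authors' deposited table (log2 0.53 ± 0.18, adjusted p = 0.0282), and its call was lost on the TPM scale (adjusted p = 0.221), where the list had 0 higher and 2 lower. On the nuclear TPM scale the list had 4 higher and 0 lower. CDC37, another cochaperone, had the smallest adjusted p of those not called (0.0947).

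Genes known to act on PTGS2 transcription or mRNA decay were called lower in 9 of 23 cases and higher in 0, against 10.4% lower and 4.12% higher of all tested entries, with a median log2 fold change of -0.22. On the TPM scale 0 were higher and 10 lower, and on the nuclear TPM scale 1 was higher and 8 lower. This list, like the others, was chosen with earlier results of these data known. A share above that of all entries is therefore no test of the list. FOS, of the AP-1 transcription factor, averaged 9.54 TPM on day 6 and 218 TPM on day 4 in the authors' deposited table (log2 -4.32 ± 0.58, adjusted p = 1.16e-10). JUN, its partner, averaged 18.3 TPM on day 6 and 182 TPM on day 4 there (log2 -3.10 ± 0.47). EGR1, an immediate early factor, averaged 41.4 TPM on day 6 and 268 TPM on day 4 there (log2 -2.50 ± 0.43). IL1R1, the receptor of interleukin 1, averaged 5.1 TPM on day 6 and 20.4 TPM on day 4 there (log2 -1.81 ± 0.38). DUSP1, ZFP36, NFKBIA, NR4A1 and CEBPD fell as well, and CEBPD was not called on the nuclear TPM scale (adjusted p = 0.0671). STAT3 had the smallest adjusted p of those not called (0.115). The list mixes genes that raise PTGS2 with genes that lower it, such as ZFP36, so its count gives no direction for PTGS2. IL1B and TNF, cytokines that induce PTGS2, were not called (adjusted p = 0.586 and 0.862 in the authors' deposited table). Their part in the level of PTGS2 was not tested.

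In whole tissue, fewer cells of a type and less RNA per cell cannot be told apart, and markers of several cell types moved beside the enzymes. Their counts stand against 10.4% lower and 4.12% higher of all tested entries. Of 10 fibroblast, theca or stroma markers 5 were called lower and 0 higher, with log2 fold changes of -4.03 to 0.30. The 10 markers summed to 7768 TPM on day 6 and 9335 TPM on day 4 in the authors' deposited table. Among them TCF21 averaged 5.64 TPM on day 6 and 104 TPM on day 4 there, while COL1A1 averaged 3352 and 3734 TPM and was not called. Pericyte and smooth muscle markers were lower in 3 of 8 and higher in 0, summing to 654 TPM on day 6 and 2263 TPM on day 4 there. The 3 were the contractile genes ACTA2 (328 TPM on day 6 and 1329 TPM on day 4), MYH11 (11.3 and 244 TPM) and TAGLN (89.1 and 410 TPM). RGS5, MCAM, CSPG4, PDGFRB and NOTCH3 were not called, with log2 fold changes of -0.46 to 0.11. The part of any of these stroma, pericyte and smooth muscle markers in the fall of PTGDS and PTGES was not tested.

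Leukocytes and platelets are known to express PTGS2 and PTGS1, and leukocyte markers were lower on day 6 in several lists. Their counts stand against 10.4% lower and 4.12% higher of all tested entries. Macrophage markers were lower in 3 of 8 and higher in 0, with a summed level of 44.2 TPM on day 6 and 98.6 TPM on day 4 in the authors' deposited table. T cell and NK markers were lower in 4 of 8 and higher in 0 (8.47 TPM on day 6 and 24.7 TPM on day 4). B and plasma cell markers were lower in 2 of 5 and higher in 0 (3.14 TPM on day 6 and 81.5 TPM on day 4). Most of that sum was the 2 called, JCHAIN (2.2 TPM on day 6 and 66.8 TPM on day 4) and MZB1 (0.151 and 11.9 TPM). CD79A, CD79B and MS4A1 were not called, with log2 fold changes of -1.90 to -1.25. Neutrophil markers were higher in 1 of 4 and lower in 0 (30.5 TPM on day 6 and 17.3 TPM on day 4), and of 3 platelet markers 0 were called, with GP9 listed at 0 on day 4, all in the authors' deposited table. Mast cell markers were lower in 1 of 7 and higher in 0, and KIT, which luteal tissue may also express, held 64.9 of their 69.2 TPM on day 6 and 38.4 of 49.4 TPM on day 4 there. On the nuclear TPM scale 2 macrophage markers and 2 T cell and NK markers were lower, and of the mast cell markers 1 was higher and 0 lower. On the TPM scale 6 macrophage, 6 T cell and NK, 3 B and plasma cell, 2 mast cell and 1 platelet markers were lower. Of all 19485 tested entries 3829 were lower on the TPM scale, and on the nuclear TPM scale 1848 were higher and 1595 lower.

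Steroidogenic luteal markers all had positive log2 fold changes, of 0.56 to 2.32, with 1 of 6 called higher. Counts of the marker lists named here stand against 4.12% higher and 10.4% lower of all tested entries. The 6 markers summed to 21228 TPM on day 6 and 12099 TPM on day 4 in the authors' deposited table. Endothelial markers, of the cells known to make prostacyclin, were lower in 1 of 8 and higher in 0, summing to 263 TPM on day 6 and 343 TPM on day 4 there. Markers of surface epithelium and oviduct were lower in 1 of 9 and higher in 0 (169 TPM on day 6 and 173 TPM on day 4). The shares called lower of the endothelial list (12.5%) and of this list (11.1%) lay near the 10.4% of all tested entries. Neither list stood out. On the TPM scale 2 endothelial markers and 2 of surface epithelium and oviduct were lower, beside 3829 of all 19485 tested entries. On the nuclear TPM scale 2 steroidogenic luteal markers were higher, beside 1848 of all tested entries. How far these cell types account for any enzyme gene was not tested.

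**Figure D5:**
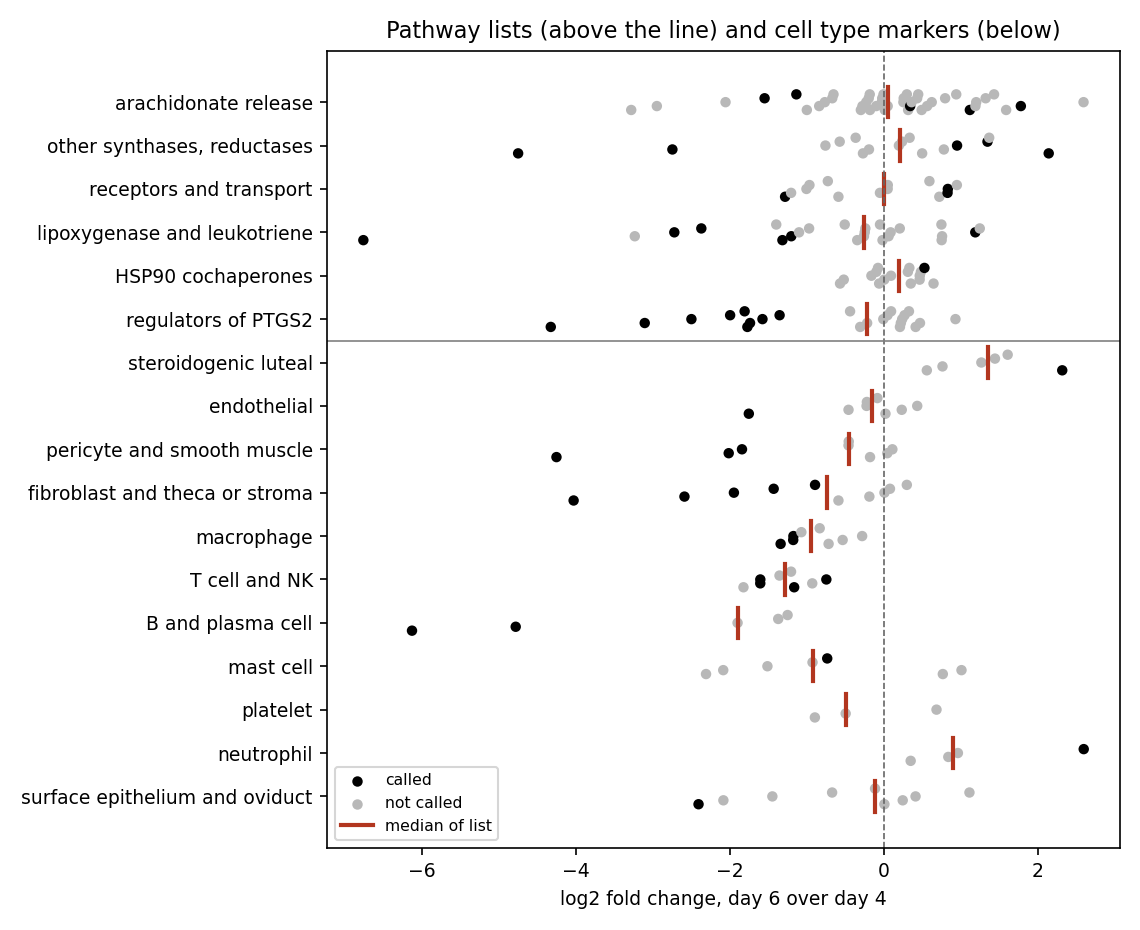
Log2 fold change, day 6 over day 4, of the tested genes of each pathway list (above the line) and each cell type marker list (below), black where called, with a red bar at the list's median. The 9 called genes among regulators of PTGS2 all lie below 0, and steroidogenic luteal markers all lie above 0.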

How the data were processed

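Per the labels, RNA of 7 luteal samples was made into stranded mRNA libraries and read as single reads of 100 nt. Per the submitters' processing notes, FastQC and DESeq2 were used with build ARS-UCD1.2. The aligner, the counter and the annotation are not stated. The deposited table gives the authors' mean TPM per day, a unit read from the values, since both columns sum to 999999. The deposited log2 ratio is that of mean TPM plus 1 in all 19539 entries (tolerance 1e-06) and was not used for sizes. The authors' Wald statistic is the deposited score, with its standard error on the log2 scale. For 19485 entries the deposited p-value follows from this score by the normal distribution (two-sided), and Benjamini-Hochberg adjustment over them gives the deposited adjusted p-value. The other 54 entries have a deposited p of 1 and were left out. Depth per library is unknown.

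Fold changes, 95% Wald intervals, scalings and alternatives were computed with Python 3.11.15, pandas 2.3.3, numpy 2.4.6 and scipy 1.17.1. The smallest size that would be called is the smallest Wald statistic among all calls, 2.69, times a gene's standard error. The members and the gene lists were chosen with earlier results of these data known. The text names all members, of each pathway list the called genes and the uncalled one of smallest adjusted p, PTGFR and SLCO2A1, and for each called member the 3 nearest entries, of which 1 is not reported here. HPGDS, AKR1B1, TBXAS1, IL1B and TNF, and single markers, were named after their values were seen. Symbols were matched directly or by RefSeq synonyms of ARS-UCD2.0, and 136 genes of the pathway lists were tested. No sequences or coordinates are given.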

Additional observations from a re-analysis of the deposited data

How the results depend on the processing

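Of 99 alternative values of single enzyme genes, 79 kept their direction and side of the threshold or, for untested ratios, moved by less than 1 standard error. Part of this count was fixed in advance, since genes not called stay uncalled under the stricter thresholds and the t distribution. On the TPM scale PTGS1 (-1.43) and HPGD (-1.39) became called, PTGES2 (0.53) lost its call and PTGES3 turned to -0.13. On the nuclear TPM scale PTGIS (0.60) became called. Log2 ratios of mean TPM with pseudocounts of 0, 0.1 and 1 also put PTGES3 at -0.13 and moved PTGIS to 0.24, and a pseudocount of 1 moved PTGS2 to -0.75. At adjusted p under 0.01, PTGES (-1.22) and PTGES2 (0.75) lost their calls, which left 2 enzyme genes, 18 pathway genes and 1443 entries called. Against a fold of 1.5 the same pair lost its calls, with 2, 9 and 608 left. Under the t distribution (5 degrees of freedom) PTGDS (-3.55), PTGS2 (-1.93), PTGES (-1.22) and PTGES2 (0.75) lost their calls, and 0 enzyme genes, 0 pathway genes and 0 entries were left, beside 4, 29 and 2823 as reported. The mean of at least 1 TPM leaves PTGS2 out of the test. The cause was not tested for the scales, and the stricter thresholds and the t distribution call less by construction. No enzyme gene stands on more than 1 entry, so the choice of entry was not varied. Leaving out a library was not run, since the table holds day means only. No paired analysis was possible because the columns carry no replicate numbers.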
